A study of Mus musculus with 8 samples.

Results

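Receptor tyrosine kinases are cell surface receptors that pair up when a growth factor binds outside the cell, phosphorylate each other inside it, and pass the signal to the RAS-ERK and PI3K-AKT pathways. The 10 genes described here are 9 genes of this kind with a known place in melanoma, and *Ngfr*, out of 55414 genes in the expression table. They were chosen by name: the TAM family (*Axl*, *Tyro3* and *Mertk*), the ERBB family members *Egfr* and *Erbb3*, the hepatocyte growth factor receptor *Met*, the stem cell factor receptor *Kit*, the fibroblast growth factor receptor *Fgfr1*, the platelet-derived growth factor receptor *Pdgfrb* and the neurotrophin receptor *Ngfr* (CD271). NGFR is not a kinase. It belongs to the tumour necrosis factor receptor family and marks neural crest-like cells. In melanoma, KIT and ERBB3 are usually found in melanocytic cells, whereas high AXL, EGFR and NGFR are known from cells that have lost melanocytic features or tolerate targeted drugs.

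RNA was sequenced from B16F10 cells, a mouse melanoma line, after 24 h in culture at 21% or 1% O2. WT cells and CypD KO cells, in which *Ppif* (the gene of cyclophilin D, a mitochondrial protein that promotes opening of the permeability transition pore) was targeted with CRISPR/Cas9 followed by puromycin selection, were kept at 21% O2. Control cells with the empty pcDNA vector and cells labelled CypD OE, with pcDNA carrying CypD, were both grown out under G418 and kept at 1% O2. Each of the 4 groups had 2 libraries, and as the knockout and vector lines were selected clones, differences between clones and effects of *Ppif* cannot be told apart.

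Values are TPM, a relative abundance of transcripts corrected for their length. *Ppif* itself was 50.68 and 49.99 TPM in WT and 10.4 and 12.1 TPM in CypD KO, a mean of 22.4% of WT. Control libraries held 44.6 and 42.3 TPM of it, and those labelled CypD OE held 50.3 and 49.3 TPM, 1.15-fold higher (limma adjusted p = 0.0794), so that group is called by its label throughout. A fragment on a transcript of 1000 effective bases was worth 0.082 to 0.097 TPM, and 17942 to 19692 genes were above 0 in a library. All 10 melanocytic markers were expressed, at a summed level of 16079 to 16184 TPM in WT, 12917 to 13083 in CypD KO, 21001 to 21558 in Control and 13908 to 14084 in the CypD OE-labelled libraries. *Tyrp1* alone was 7949 and 7997 TPM in WT, so the sum says little about less abundant markers. One of these, *Tyr*, was 37.44 and 41.25 TPM in WT and 167.0 and 147.1 TPM in CypD KO. These 2 genes are named after their values were seen. In these bulk libraries, fewer cells that express a gene and less RNA of it per cell cannot be told apart.

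Of the 10 genes, 7 reached 1 TPM in at least 2 libraries and were tested with limma among 13526 genes. *Met* was by far the most abundant, between the 91.9th and the 97.6th percentile of the tested genes in every group, with 10759 to 32487 fragments a library. Approximate fragment numbers lay between 530 and 3099 for *Erbb3*, 169 and 2336 for *Axl*, 54.4 and 557 for *Kit*, 84.3 and 393 for *Tyro3*, 65.1 and 145 for *Pdgfrb* and 20.6 and 90.9 for *Mertk*. *Egfr*, *Fgfr1* and *Ngfr* did not pass this filter.

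Promoter sequence was read for 7 of the 10 genes from RefSeq (GRCm38.p6), as windows from 250 bases before to 50 bases after the start of transcription, and searched on both strands for 4 motifs: ACGTG (the core of the hypoxia response element), CACGTG and CATGTG (E-boxes of the kinds bound by MITF and other basic helix-loop-helix factors) and TGANTCA (AP-1). These motifs were searched because O2 differed between groups and because the cells are melanocytic. Matches are shown for *Met* and *Ngfr*, the only genes whose windows held any. Among all 32851 windows of the same length, ACGTG was in 19.6%, CATGTG in 14.2%, TGANTCA in 7.8% and CACGTG in 7.2%. The window of *Met* (chromosome 6, 17463707 to 17464006) held CACGTG, which also contains ACGTG on each strand, and TGANTCA. The window of *Ngfr* held ACGTG, and those of *Axl*, *Tyro3*, *Mertk*, *Kit* and *Egfr* held none of the 4. In the lines that follow, capitals mark the motif in 30 bases of promoter, 5′ to 3′ on the strand of the gene, and a match is a description of letters, not of binding.
Met E-box, position -126 from the start, chr6:17463819-17463848, plus strand: gggacgaacagaCACGTGctggggcgggta
Met AP-1, position -54 from the start, chr6:17463892-17463921, plus strand: tgttgcccggcTGAGTCAcgggccgggcag
Ngfr ACGTG, position -211 from the start, chr11:95587892-95587921, minus strand: ggtgccctgggtACGTGgggcagcccactg

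**Figure D1:**
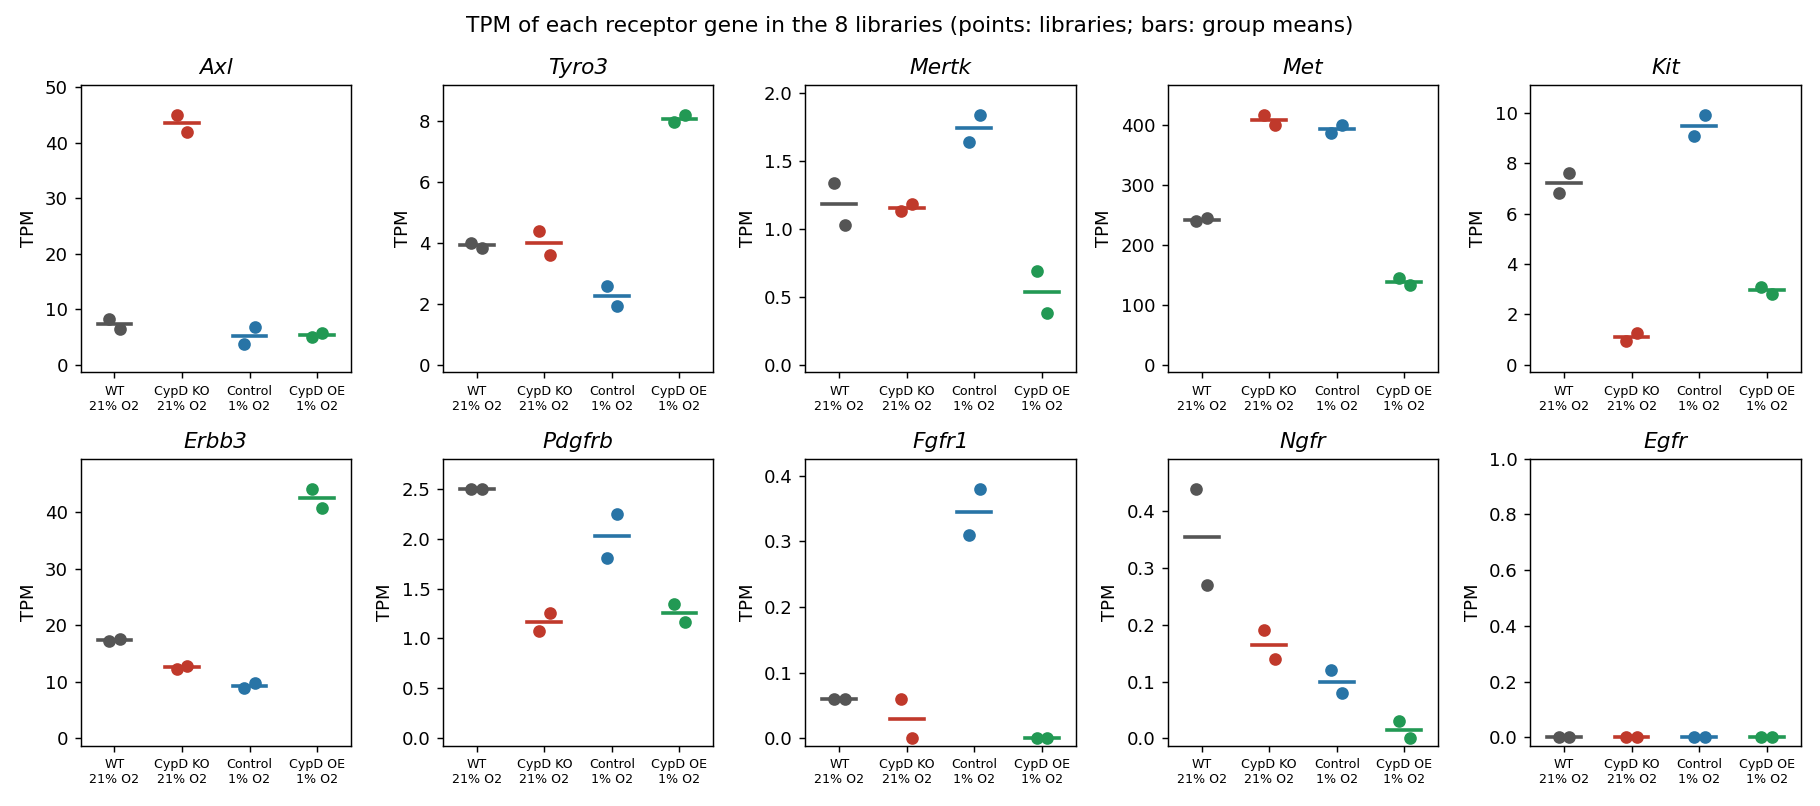
TPM of each of the 10 genes (vertical axes, a scale for each gene) in WT, CypD KO, Control and CypD OE-labelled libraries. Points are libraries and bars are the means of 2 libraries. *Axl* stood at 45.03 and 41.98 TPM in CypD KO and at 8.22 TPM or less in every other library, whereas *Erbb3* and *Tyro3* were highest in the CypD OE-labelled libraries.

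*Axl* (chromosome 7, 25456535 to 25488329 in GRCm39, minus strand) encodes the TAM receptor most often linked to invasive melanoma cells. It was 8.22 and 6.42 TPM in WT, 45.03 and 41.98 TPM in CypD KO, 3.69 and 6.74 TPM in Control and 4.95 and 5.65 TPM in the CypD OE-labelled libraries. Both CypD KO libraries stood far above the other 6, and the ranges of Control and CypD OE overlapped. The mean in CypD KO was 5.94-fold that in WT, a log2 fold change of 2.43 ± 0.23 (SE, limma adjusted p = 0.000215), and the gene moved from the 33.6th to the 71.4th percentile of tested genes. Between the CypD OE-labelled and Control libraries the log2 difference was 0.06 ± 0.23 (adjusted p = 0.866), with a sign that turned negative when Control replicate 1 (-0.30) or CypD OE replicate 2 (-0.02) was left out. Control against WT did not pass either (-0.46, adjusted p = 0.202), but without Control replicate 2 it did (-0.82, adjusted p = 0.0267). In the order Control, CypD OE, WT and CypD KO, from low to high, only the step from WT to CypD KO passed the test.

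*Tyro3* (chromosome 2, 119628214 to 119648738, plus strand), a TAM receptor of neural and melanocytic cells, followed another order. It was 3.99 and 3.83 TPM in WT, 4.38 and 3.60 TPM in CypD KO, 2.59 and 1.93 TPM in Control and 7.95 and 8.19 TPM in the CypD OE-labelled libraries. The CypD OE-labelled libraries were the highest and the Control libraries the lowest, without overlap, while the CypD KO range enclosed that of WT. *Tyro3* was 3.57-fold higher in CypD OE-labelled cells than in Control (log2 fold change 1.48 ± 0.14, limma adjusted p = 0.00037), and CypD KO against WT gave 0.02 ± 0.14 (adjusted p = 0.927). Control lay below WT by a log2 difference of -0.60 (adjusted p = 0.0250), a call lost without WT replicate 1 (0.0972), WT replicate 2 (0.0818) or Control replicate 2 (0.108).

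*Mertk* (chromosome 2, 128540729 to 128645080, plus strand), the TAM receptor best known for the uptake of dying cells by macrophages, was close to the detection filter. Its levels were 1.34 and 1.03 TPM in WT, 1.13 and 1.18 TPM in CypD KO, 1.64 and 1.84 TPM in Control and 0.69 and 0.38 TPM in the CypD OE-labelled libraries. The CypD OE-labelled libraries were the lowest of the 8, and *Mertk* fell there by 0.84 ± 0.18 on the log2 scale against Control (limma adjusted p = 0.00971). Leaving out Control replicate 2 gave an adjusted p of 0.0527, and leaving out CypD OE replicate 2 gave 0.0524. No step between neighbours in the order CypD OE, CypD KO, WT and Control passed the test.

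As a share of the summed TPM of the 3 TAM genes, *Axl* made up 60.7% and 56.9% in WT and 89.1% and 89.8% in CypD KO. *Tyro3* made up 29.5% and 34.0% in WT, 8.67% and 7.70% in CypD KO, and 58.5% and 57.6% in the CypD OE-labelled libraries. Thus *Axl* was the leading TAM transcript in WT, CypD KO and Control, and *Tyro3* in the CypD OE-labelled libraries. The Control libraries differed from each other, with *Axl* at 46.6% and 64.1%. These shares are descriptions of the same values and were not tested.

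*Erbb3* (chromosome 10, 128403392 to 128425811, minus strand) encodes an ERBB receptor with little kinase activity of its own, which binds neuregulin and signals through a partner such as ERBB2. It was 17.1 and 17.6 TPM in WT, 12.3 and 12.8 TPM in CypD KO, 8.83 and 9.73 TPM in Control and 44.2 and 40.7 TPM in the CypD OE-labelled libraries. The 4 groups did not overlap, and every step in the order Control, CypD KO, WT and CypD OE passed the test. The gene was 4.58-fold higher in CypD OE-labelled than in Control libraries (log2 fold change 2.08 ± 0.0765, limma adjusted p = 6.26e-06). It was lower in CypD KO than in WT by a log2 difference of -0.44 (adjusted p = 0.00317) and lower in Control than in WT by -0.84 (adjusted p = 0.000605). *Egfr* (chromosome 11, 16702198 to 16868158, plus strand), the epidermal growth factor receptor, was listed at 0 in all 8 libraries. At the depth of these libraries 3 fragments of *Egfr* would have been worth 0.0246 to 0.0291 TPM, a limit that covers counting error only.

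The ratio of *Axl* to *Erbb3* TPM was 0.48 and 0.364 in WT, 3.68 and 3.28 in CypD KO, 0.418 and 0.693 in Control and 0.112 and 0.139 in the CypD OE-labelled libraries. *Axl* thus exceeded *Erbb3* in the CypD KO libraries, whereas *Erbb3* exceeded *Axl* in the other 6.

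**Figure D2:**
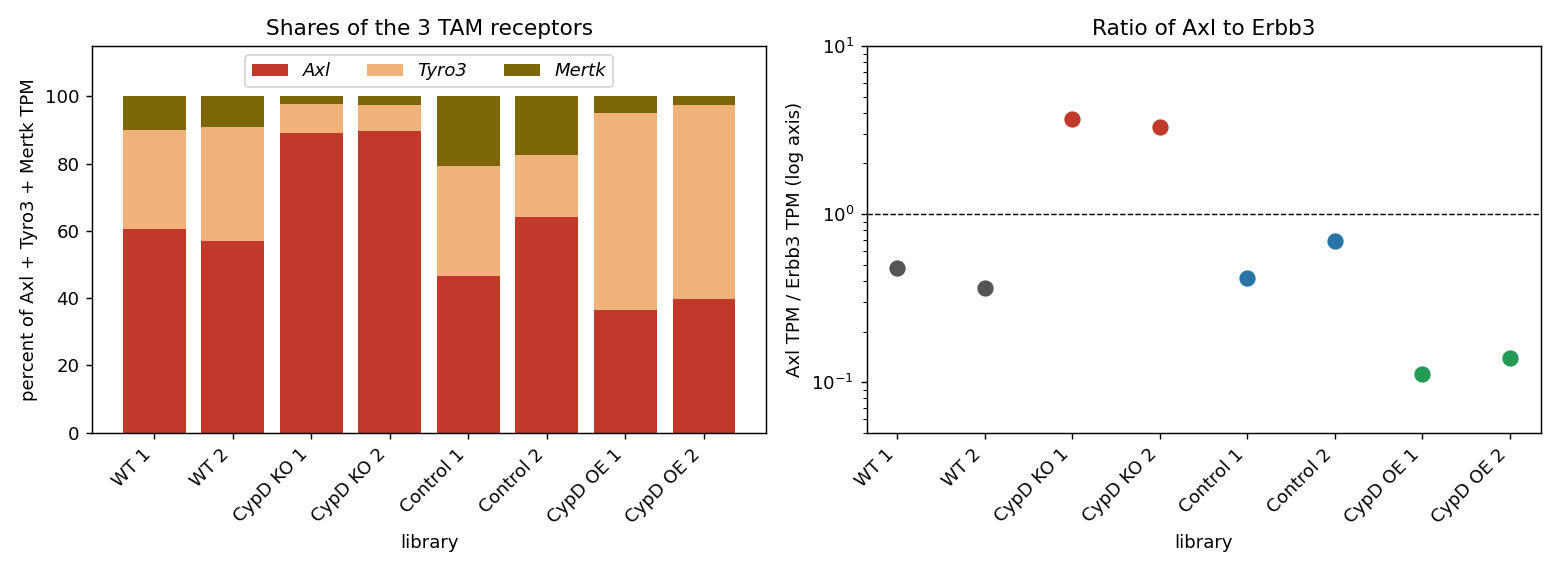
Left, percent of the summed TPM of *Axl*, *Tyro3* and *Mertk* taken by each gene in each of the 8 libraries. Right, *Axl* TPM divided by *Erbb3* TPM in each library on a log axis, with a dashed line at equal levels. The CypD KO libraries sit above the line, at 3.68 and 3.28, and the CypD OE-labelled libraries lowest, at 0.112 and 0.139.

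*Met* (chromosome 6, 17463749 to 17573979, plus strand), whose product binds hepatocyte growth factor and drives the scattering and migration of cells, is a gene whose promoter letters are printed above. It was 240 and 246 TPM in WT, 418 and 400 TPM in CypD KO, 387 and 402 TPM in Control and 145 and 133 TPM in the CypD OE-labelled libraries. CypD KO and Control overlapped at the top, WT lay between, and the CypD OE-labelled libraries were the lowest. *Met* was 1.69-fold higher in CypD KO than in WT (log2 fold change 0.75 ± 0.048, limma adjusted p = 3.8e-05) and 2.84-fold lower in CypD OE-labelled than in Control libraries (-1.50 ± 0.048, adjusted p = 3.27e-06). Control was 1.63-fold above WT (0.70, adjusted p = 0.000217), a difference in which O2 and vector cannot be told apart. CypD KO and Control did not differ past the threshold (0.05 ± 0.048, adjusted p = 0.419). *Met* alone made up 69.2% to 93.2% of the summed TPM of the 10 genes in a library. *Mitf*, the melanocytic transcription factor of which *MET* is a known target, is given here after its values were seen: 277 and 281 TPM in WT, 280 and 265 in CypD KO, 379 and 371 in Control and 203 and 190 in CypD OE-labelled libraries. It was lower in CypD OE-labelled than in Control libraries (-0.93, adjusted p = 1.86e-05) and higher in Control than in WT (0.43, adjusted p = 0.00097), as *Met* was, whereas CypD KO against WT gave -0.03 (adjusted p = 0.593). Of the 10 melanocytic markers, *Mitf* among them, 7 fell in the first of these comparisons (18.3% of all tested genes did) and 9 rose in the second (12.1% did). In the third, CypD KO against WT, 2 rose and 6 fell (30.1% and 18.4% of all). The directions of *Mitf* in the first 2 were therefore not particular to it. The part of *Mitf* in the *Met* values was not tested.

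*Kit* (chromosome 5, 75735576 to 75817404, plus strand), the receptor that melanocyte precursors need to survive and migrate, was 6.81 and 7.62 TPM in WT, 0.92 and 1.24 TPM in CypD KO, 9.07 and 9.92 TPM in Control and 3.08 and 2.82 TPM in the CypD OE-labelled libraries. No groups overlapped, and *Kit* was the lowest in CypD KO. It was 6.68-fold lower in CypD KO than in WT (log2 fold change -1.98 ± 0.13, limma adjusted p = 4.19e-05) and 3.22-fold lower in CypD OE-labelled than in Control libraries (-1.41 ± 0.13, adjusted p = 0.000304). Control against WT gave 0.35 ± 0.13 (adjusted p = 0.0935). *Kit* therefore had a lower level both in the knockout at 21% O2 and in the CypD OE-labelled cells at 1% O2, each against its own comparison group. Its percentile among tested genes was 33.4 in WT and 6.81 in CypD KO.

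*Pdgfrb*, a receptor of pericytes and fibroblasts, was 2.50 TPM in both WT libraries, 1.07 and 1.25 TPM in CypD KO, 1.81 and 2.25 TPM in Control and 1.34 and 1.16 TPM in the CypD OE-labelled libraries. Both CypD KO libraries were below WT, and *Pdgfrb* fell by 0.70 ± 0.15 on the log2 scale (limma adjusted p = 0.00794). CypD OE-labelled against Control gave -0.43 ± 0.15 (adjusted p = 0.0633), and in the order CypD KO, CypD OE, Control and WT no single step passed. *Pdgfrb* had between 65.1 and 145 fragments a library.

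*Fgfr1* (chromosome 8, 26003670 to 26066824, plus strand), a receptor for many fibroblast growth factors, stayed under the filter. It was 0.06 TPM in both WT libraries, 0.06 and 0 TPM in CypD KO, 0.31 and 0.38 TPM in Control and 0 in both CypD OE-labelled libraries. The Control libraries were the highest, and the largest value corresponds to only 25 fragments. In the limma fit without a filter on low TPM, over 24706 genes, *Fgfr1* was higher in Control than in WT (adjusted p = 0.0105) and lower in CypD OE-labelled (0.00275) and CypD KO (0.00284) than in Control libraries. Its other comparisons did not pass there. *Ngfr* (chromosome 11, 95459638 to 95478561, minus strand) was 0.44 and 0.27 TPM in WT, 0.19 and 0.14 in CypD KO, 0.12 and 0.08 in Control and 0.03 and 0 in the CypD OE-labelled libraries. These groups did not overlap, with WT the highest, but the largest value corresponds to 15.9 fragments. In the same unfiltered limma fit *Ngfr* was lower in CypD OE-labelled libraries than in WT (adjusted p = 0.0182), CypD KO against WT did not pass (0.0809) and neither did Control against WT (0.0581).

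**Figure D3:**
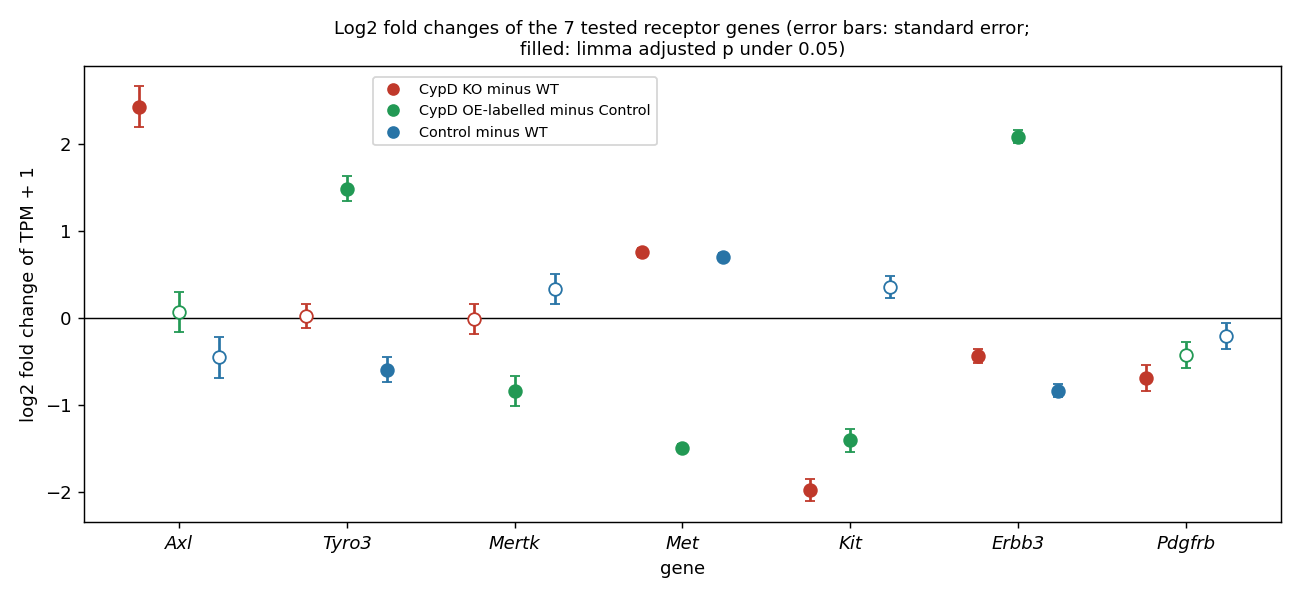
Log2 fold change of TPM + 1 (vertical axis) of the 7 tested genes for CypD KO minus WT, CypD OE-labelled minus Control and Control minus WT, with standard errors as bars. Filled points have a limma adjusted p under 0.05. *Axl* is high for CypD KO minus WT (2.43), *Erbb3* and *Tyro3* for CypD OE-labelled minus Control (2.08 and 1.48), and *Kit* is low in both (-1.98 and -1.41).

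Side by side, 5 of the 7 tested genes passed in CypD KO against WT, where 48.4% of all tested genes did. *Axl* and *Met* were higher (30.1% of all tested genes were) and *Kit*, *Pdgfrb* and *Erbb3* lower (18.4% were). After rescaling by the median of ratios, the share of higher genes among all calls of this comparison went from 62.1% to 49.4%, with the same 2 and 3 counts among the receptors. In CypD OE-labelled against Control libraries, 5 of 7 passed, beside 37.4% of all tested genes. There *Erbb3* and *Tyro3* were higher (19% of all were) and *Met*, *Kit* and *Mertk* lower (18.3% were). In Control against WT 3 of 7 passed, beside 24.2% of all: *Met* was higher (12.1% of all were) and *Erbb3* and *Tyro3* lower (12.1% were). Over the 7 genes, log2 fold changes had medians of -0.02, -0.43 and -0.21 in these comparisons, beside 0.09, 0.002 and 0.01 for all tested genes.

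In Control against WT, for every gene, O2 changed together with vector and drug selection, and these cannot be told apart. The remaining pairs of groups differ in genotype, O2, vector and drug selection together and served to order the levels. CypD OE-labelled against WT gave 5 calls of 7, beside 27.7% of all genes: *Erbb3* (1.24) and *Tyro3* (0.89) were higher, and *Kit* (-1.06), *Met* (-0.80) and *Pdgfrb* (-0.64) lower. CypD KO against Control gave 5 of 7, beside 44%, with *Axl* (2.88), *Tyro3* (0.62) and *Erbb3* (0.40) higher and *Kit* (-2.34) and *Pdgfrb* (-0.49) lower. CypD KO against CypD OE gave 5 of 7, beside 48.9%, with *Axl* (2.82) and *Met* (1.55) higher and *Erbb3* (-1.68), *Kit* (-0.93) and *Tyro3* (-0.87) lower. The *Pdgfrb* call in CypD KO against Control was lost when any library was left out (adjusted p 0.0508 to 0.163) and its call in CypD OE-labelled against WT without any of those 4 libraries (0.0596 to 0.0952). The *Tyro3* call in CypD KO against Control was lost without CypD KO replicate 1 (0.0721) or Control replicate 2 (0.0603).

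The ligands are the growth factors that these receptors bind. Of 40 listed, 13 were tested and 12 were at 0 in every library. Among those under the filter were, named after their values were seen, the TAM ligand *Gas6* (at most 0.08 TPM), the MET ligand *Hgf* (at most 0.03 TPM) and the ERBB3 ligand *Nrg1* (listed at 0 in every library). In CypD KO against WT 9 of the 13 rose and none fell, beside 30.1% higher and 18.4% lower among all tested genes, with a median log2 fold change of 0.84 (all genes 0.09). Among the 9, *Tgfa*, *Pdgfc*, *Fgf18* and *Ntf5* reached 1 TPM only in the CypD KO libraries. They were tested because they were high there, so this count and median depend in part on the filter. In CypD OE-labelled against Control libraries 4 rose and none fell (19% and 18.3% of all, median 0.07 beside 0.002), and in Control against WT 1 fell (12.1% of all in each direction, median -0.09 beside 0.01). *Fgf2*, which rose in CypD OE-labelled against Control libraries, reached 1 TPM only in the former. Apart from *Pdgfc*, these genes are named after their values were seen.

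Platelet-derived growth factors and a neurotrophin had the largest increases. *Pdgfa*, which acts mainly through the alpha receptor, was 14.3 and 12.6 TPM in WT and 56.8 and 52.8 TPM in CypD KO (log2 fold change 1.95 ± 0.11, limma adjusted p = 2.29e-05). *Pdgfc* was 0.08 and 0.11 TPM in WT and 6.40 and 5.05 TPM in CypD KO (2.61 ± 0.18, adjusted p = 5.6e-05). *Bdnf*, a neurotrophin that binds TrkB and NGFR, was 0.74 and 0.58 TPM in WT and 8.40 and 8.55 TPM in CypD KO (2.51 ± 0.15, adjusted p = 2.59e-05). For all 3, both CypD KO libraries were above each of the other 6. The partner receptors of these ligands were low: *Pdgfrb* fell in CypD KO, *Pdgfra* was at most 1.02 TPM, and *Ntrk2*, which encodes TrkB, was listed at 0. *Pros1*, the protein S gene and the TAM ligand that was expressed, was 12.2 and 12.4 TPM in WT, 16.1 and 15.6 in CypD KO, 9.09 and 9.11 in Control and 16.8 and 14.3 in CypD OE-labelled libraries. It was higher in CypD KO than in WT (0.34, adjusted p = 0.0187), higher in CypD OE-labelled than in Control libraries (0.71, adjusted p = 0.00123) and lower in Control than in WT (-0.40, adjusted p = 0.0204). *Kitl*, the ligand of KIT, was 1.93 and 2.32 TPM in WT and 4.93 and 4.22 TPM in CypD KO (0.84, adjusted p = 0.00516), opposite in direction to *Kit*. *Pros1*, *Kitl*, *Pdgfra* and *Ntrk2* are named after their values were seen, as ligands or receptors that belong to the genes described above.

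**Figure D4:**
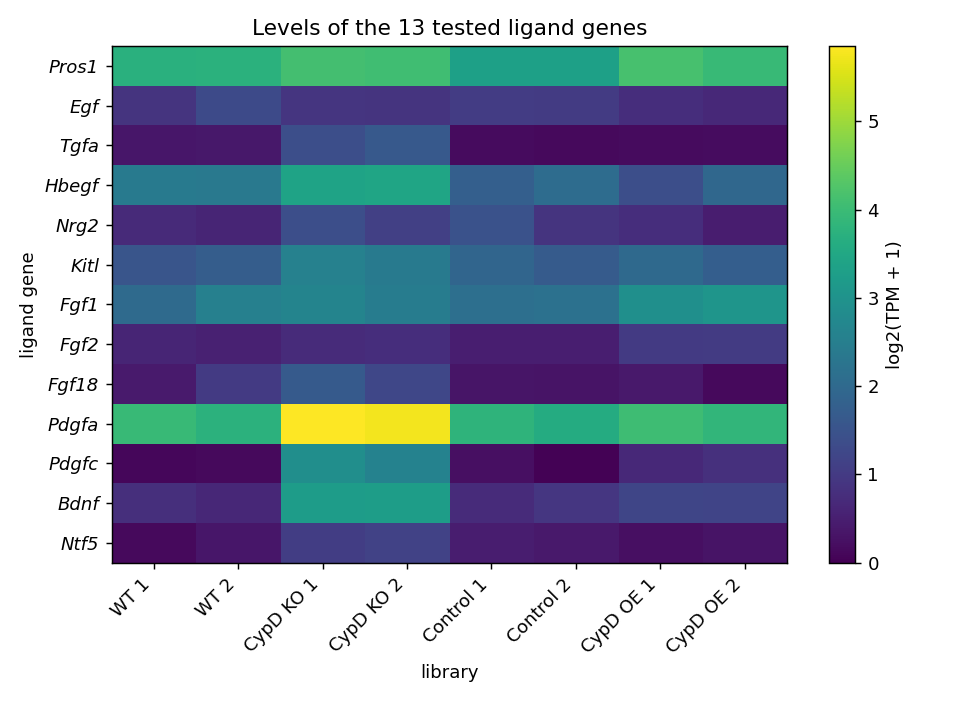
Heat map of log2(TPM + 1) (colour scale) of the 13 tested ligand genes (rows) in the 8 libraries (columns). *Pdgfa*, *Bdnf* and *Pdgfc* are brightest in the CypD KO columns, and *Pros1* is expressed in every library, between 9.09 and 16.8 TPM.

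Other receptor tyrosine kinases were counted from a list of 50, of which 17 were tested. In CypD KO against WT 8 rose and 6 fell (30.1% and 18.4% of all genes, median 0.15 beside 0.09), in CypD OE-labelled against Control libraries 7 rose and 6 fell (19% and 18.3%, median 0.16 beside 0.002), and in Control against WT 3 rose and none fell (12.1% of all each way, median 0.12 beside 0.01). *Epha3*, an ephrin-A receptor, fell most in CypD KO, from 65.0 and 62.9 TPM in WT to 15.3 and 15.5 TPM (-1.99 ± 0.0481, limma adjusted p = 1.17e-06). *Epha2*, an ephrin-A receptor linked to invasion, went from 1.28 and 1.58 TPM to 12.1 and 11.3 TPM (2.38 ± 0.15, adjusted p = 3.19e-05). The 2 ephrin receptors thus moved in opposite directions in CypD KO. *Fgfrl1*, an FGF receptor without a kinase domain, rose from 5.45 and 4.09 TPM to 12.46 and 12.03 TPM (1.21, adjusted p = 0.00193). *Ephb6*, an ephrin receptor without kinase activity, rose by 1.56 (adjusted p = 0.00983), but its CypD KO libraries were far apart, at 5.04 and 1.77 TPM. Elsewhere it reached 1 TPM only in CypD OE replicate 2 (1.06 TPM). It was therefore tested only because it was high in CypD KO, and the count of rises there depends in part on the filter. In CypD OE-labelled against Control libraries, *Fgfr3* rose by 1.56 (adjusted p = 0.00625), from 2.17 and 4.76 TPM to 10.1 and 13.4 TPM. *Aatk*, a kinase of the LMTK family, rose by 1.23 (adjusted p = 0.00351) and *Epha4* fell by 1.11 on the log2 scale (adjusted p = 0.00248), from 1.82 and 2.08 TPM to 0.52 and 0.23 TPM. *Erbb2*, the partner of ERBB3, is named after its values were seen. It was 3.17 and 2.95 TPM in Control and 5.59 and 5.63 TPM in the CypD OE-labelled libraries (0.70, adjusted p = 0.00289), the same direction as *Erbb3*. In CypD KO against WT (0.15, adjusted p = 0.298) and Control against WT (-0.07, adjusted p = 0.671) *Erbb2* did not pass, whereas *Erbb3* was lower in both.

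Adaptors and signal relays carry the receptor signal to RAS, PI3K and their kinases. Of 35 listed 32 were tested, and 14 rose and 5 fell in CypD KO against WT (30.1% and 18.4% of all genes, median 0.20 beside 0.09), 13 rose and 6 fell in CypD OE-labelled against Control libraries (19% and 18.3%, median 0.14 beside 0.002), and 5 rose and 4 fell in Control against WT (12.1% of all each way, median -0.03 beside 0.01). The shares that fell were near those of all genes in each of these comparisons. *Irs2*, an adaptor of the insulin and IGF receptors, went from 2.68 and 2.97 TPM in Control to 9.23 and 8.66 TPM in CypD OE-labelled libraries (1.38 ± 0.11, limma adjusted p = 0.000139).

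Negative regulators dampen the same receptors by binding them, marking them for degradation or blocking RAS-ERK signaling. Of 29 listed 25 were tested, and 12 rose and none fell in CypD KO against WT (30.1% and 18.4% of all genes, median 0.18 beside 0.09), 11 rose and 2 fell in CypD OE-labelled against Control libraries (19% and 18.3%, median 0.31 beside 0.002), and 1 rose and 3 fell in Control against WT (12.1% of all each way, median -0.08 beside 0.01). *Spry2*, a Sprouty inhibitor of RAS-ERK signaling, was higher in both contrasts: 15.7 and 14.3 TPM in WT against 38.0 and 41.3 TPM in CypD KO (1.35, limma adjusted p = 2.28e-05), and 13.9 and 15.0 TPM in Control against 29.96 TPM or slightly more in both CypD OE-labelled libraries (1.00, adjusted p = 0.000131). *Spred3*, of the same superfamily, rose by 1.47 in CypD KO (adjusted p = 9.87e-05). *Lrig1*, which promotes the degradation of ERBB, MET and other receptors, was 1.16 and 1.17 TPM in CypD KO and at most 0.10 TPM elsewhere (1.07, adjusted p = 0.00257). This gene was tested only because it was high in those libraries. *Spry4* rose by 1.81 in CypD OE-labelled against Control libraries (adjusted p = 9.78e-05), from 2.31 and 1.70 TPM to 9.69 and 9.30 TPM.

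ERK output genes are transcribed when the pathway downstream of these receptors is active, and some of them, such as the Sprouty and SPRED genes and the ephrin receptors, also stand in the lists above. Of 19 listed 17 were tested, and 12 rose and 2 fell in CypD KO against WT (30.1% and 18.4% of all genes, median 0.53 beside 0.09), 12 rose and 4 fell in CypD OE-labelled against Control libraries (19% and 18.3%, median 0.61 beside 0.002), and 3 rose and 7 fell in Control against WT (12.1% of all each way, median -0.23 beside 0.01). Beside *Epha2* and *Spry4*, described above, the largest rises were those of *Emp1* (a membrane protein) and *Ccnd1* (cyclin D1) in CypD KO and of *Etv4* and *Etv5* (ETS transcription factors) in CypD OE-labelled libraries. *Emp1* went from 14.1 and 13.8 TPM in WT to 68.6 and 67.9 TPM in CypD KO (2.21 ± 0.0546, limma adjusted p = 1.17e-06), and *Ccnd1* from 135 and 136 to 418 and 415 TPM (1.61 ± 0.0395, adjusted p = 1.17e-06). *Etv5* went from 7.11 and 7.22 TPM in Control to 59.5 and 55.6 TPM in CypD OE-labelled libraries (2.84 ± 0.0616, adjusted p = 8.85e-07), and *Etv4* from 0.30 and 1.38 to 17.4 and 17.1 TPM (3.37 ± 0.30, adjusted p = 0.000273). *Etv4* was also lower in Control than in WT (-1.25, adjusted p = 0.0258). *Myc* fell by 1.08 in CypD KO (adjusted p = 8.46e-06), from 99.1 and 93.4 TPM to 45.5 and 44.4 TPM.

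NGFR works with co-receptors such as sortilin and is cut by ADAM proteases and then by gamma-secretase. Of 24 such partners and proteases 18 were tested, although *Ngfr* itself stayed under the filter. In CypD KO against WT 5 rose and 2 fell (30.1% and 18.4% of all genes, median 0.10 beside 0.09), so that the share that rose was near that of all genes. In CypD OE-labelled against Control libraries 2 rose and 7 fell (19% and 18.3% of all, median -0.05 beside 0.002), and in Control against WT 6 rose and 2 fell (12.1% of all each way, median 0.01 beside 0.01). *Psen2*, a catalytic subunit of gamma-secretase, fell by 1.19 in CypD KO (limma adjusted p = 1.37e-05), from 63.9 and 63.0 TPM in WT to 28.6 and 26.2 TPM.

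**Figure D5:**
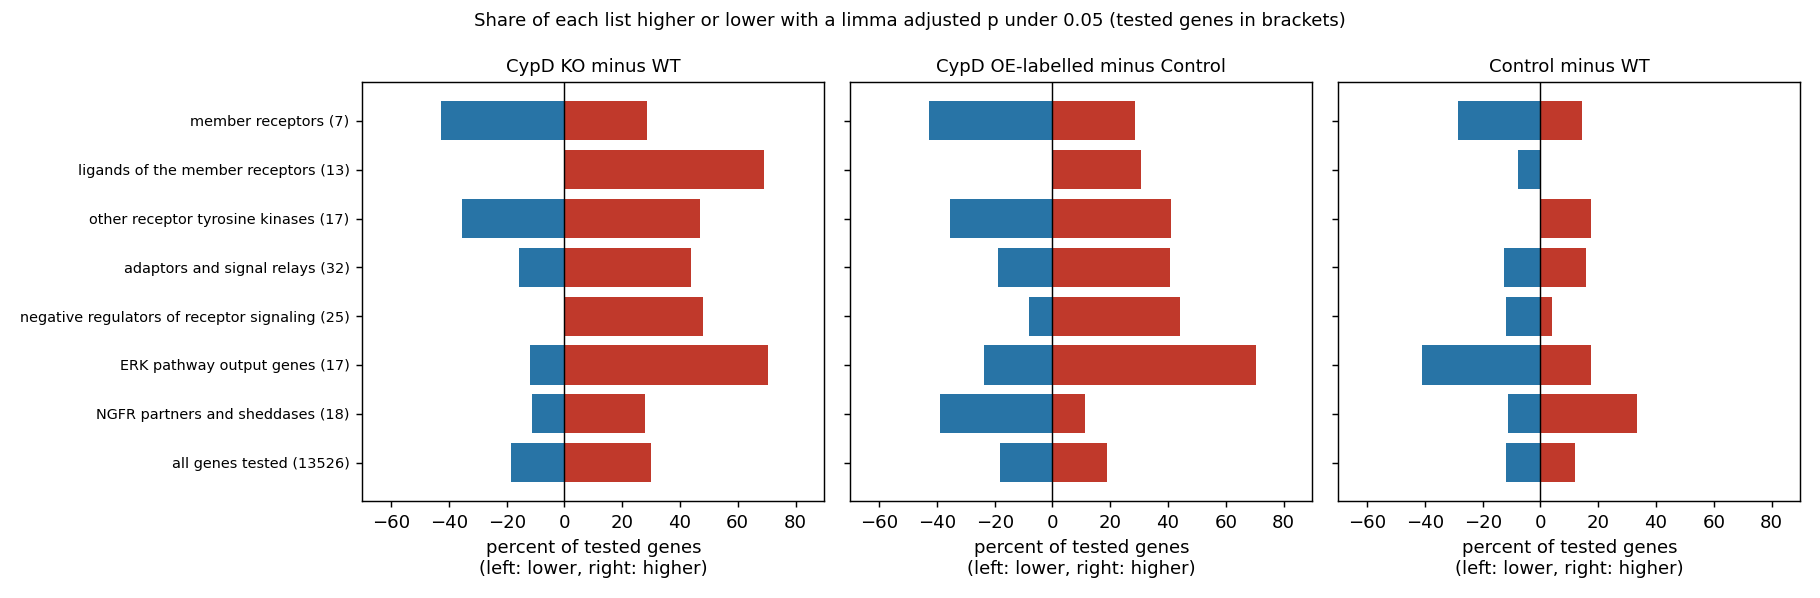
Percent of the tested genes of each list that were higher (right) or lower (left) with a limma adjusted p under 0.05, in 3 panels for CypD KO minus WT, CypD OE-labelled minus Control and Control minus WT, with the number of tested genes in brackets and all 13526 tested genes in the lowest bar. In CypD KO minus WT no ligand and no negative regulator was lower, with 9 of 13 and 12 of 25 higher, while 30.1% of all tested genes were higher. Some of the ligands and the negative regulator *Lrig1* passed the filter only through the CypD KO libraries, so these counts depend in part on it.

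Several of these receptors also mark other cell types, so markers of those cells were summed in each library. *Mertk* is known from macrophages, and the 8 macrophage markers summed to 3.67 to 4.48 TPM in WT, 24.2 to 25.2 in CypD KO, 4.68 to 4.92 in Control and 1.19 to 2.0 in CypD OE-labelled libraries. *Adgre1* and *C1qa*, which define macrophages, were at 0 in all 8 libraries, and the lysosomal gene *Cd68* alone was 3.75 and 3.45 TPM in WT and 21.9 and 23.3 TPM in CypD KO. *Lyz2* was 0.64 and 0.17 TPM in WT and 1.85 and 1.80 TPM in CypD KO (limma adjusted p = 0.0122), reaching 1 TPM only there. Only these 2 of the 8 macrophage markers were tested, and both were higher in CypD KO than in WT (30.1% of all tested genes were). As *Lyz2* was tested because it was high there, this count depends in part on the filter. *Ptprc*, *Fcgr1*, *Mrc1* and *Csf1r* were at most 0.02, 0.04, 0.05 and 0.41 TPM in any library. *Pdgfrb* is known from pericytes, whose 8 markers summed to 4.53 to 4.58 TPM in WT, 10.9 to 12.7 in CypD KO, 2.92 to 3.65 in Control and 3.17 to 3.92 in CypD OE-labelled libraries, with *Kcnj8* at 0. *Pdgfrb* was lower in CypD KO than in WT, with a range that overlapped that of the CypD OE-labelled libraries. The sum of pericyte markers was the highest in CypD KO. *Acta2*, smooth muscle actin, was at 4.96 and 7.99 TPM in CypD KO and 0 in the other 6 libraries. Fibroblast markers summed to 15.6 to 17.8 TPM in WT, 34.2 to 37.3 in CypD KO, 19.1 to 21.2 in Control and 9.23 to 11.5 in CypD OE-labelled libraries, with *Dcn* and *Thy1* at 0 throughout and 5 of 8 markers under 1 TPM in every library. The 2 tested fibroblast markers went opposite ways in CypD KO against WT: *Postn* was 8.04 and 8.07 TPM in WT and 34.8 and 31.2 TPM in CypD KO (limma adjusted p = 9.47e-06), and *Col1a2* was 9.03 and 6.87 TPM in WT and 1.09 and 2.17 TPM in CypD KO (adjusted p = 0.00176). Schwann cell and neural crest markers summed to 75.1 to 79.3, 96.3 to 105, 94.3 to 94.5 and 92.0 to 96.3 TPM in the same order, with *Sox2* at 0. Endothelial markers summed to at most 1.20 TPM, with *Cdh5*, *Tie1* and *Emcn* at 0, and epithelial markers to at most 0.55 TPM, with *Epcam* and 4 keratin genes at 0. *Cd68*, *Lyz2*, *Ptprc*, *Fcgr1*, *Mrc1*, *Csf1r*, *Acta2*, *Notch3*, *Des*, *Postn* and, among the markers, *Col1a2* are named after their values were seen. The part of the markers that moved with CypD KO in the receptor values was not tested. Of the 10 melanocytic markers 2 rose and 6 fell in CypD KO against WT (30.1% and 18.4% of all genes), 1 rose and 7 fell in CypD OE-labelled against Control libraries (19% and 18.3%), and 9 rose and none fell in Control against WT (12.1% each way). The 2 that rose in CypD KO against WT, named after their values were seen, were *Tyr* (1.97, limma adjusted p = 4.02e-06) and *Slc45a2* (0.39, adjusted p = 0.000415). The part of the 10 melanocytic markers in the values of *Kit*, *Met* and *Erbb3* was not tested either.

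For the receptors whose group means spanned at least 1 on the log2 scale, the 3 named genes with the smallest root-mean-square difference in centred log2 levels over the 8 libraries were listed as a description. The nearest to *Axl* were *Sh3bgr* (0.20), *Ltbp4* (0.22) and *B3galt5* (0.22). *B3galt5* was 9.29 and 8.83 TPM in WT and 49.9 and 49.6 TPM in CypD KO. The nearest to *Tyro3* were *Dlx6*, *Lrp8* and *Tarsl2* (0.13 to 0.14), to *Erbb3* *Fzd9*, *Slc6a15* and *Atoh8* (0.14 to 0.20), and to *Met* *C1ql3*, *Plekhb2* and *Sparcl1* (0.10 to 0.12). The nearest to *Kit* were *Col1a2*, *Slc44a3* and *Col14a1* (0.24 to 0.27), the first of which is the fibroblast marker given above.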

How the data were processed

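Per the labels and the study's methods, the authors removed ribosomal RNA and sequenced paired ends. Their tools were cutadapt 3.4 for trimming, STAR 2.7.8a for alignment (GRCm39) and RSEM 1.3.1 for quantification. What they deposited is TPM, scaled by the authors to 1000000 per library and written to 2 decimals for 55414 genes. The authors' own tests ran on read counts with DESeq2 1.26.0, which were not used here. TPM is relative, so a rise of abundant transcripts lowers all others, and RSEM divides reads shared by similar genes. TPM gives no total. The worth of a fragment was estimated from low values of genes with 600 to 3000 bases, of which 83.4% to 86.3% lay within 0.15 of a whole number (30% if evenly spread).

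Genes were tested if they reached 1 TPM in 2 or more of 8 libraries. The fit used log2(TPM + 1) and limma 3.58.1 (R 4.3.3; group means, eBayes with a trend, two-sided, Benjamini-Hochberg over 13526 genes, threshold 0.05). A check of the test on simulated data used independent normal noise with the spread that limma estimated. Such a check cannot show errors that come from TPM, low counts or replicates that may be technical. Fold changes on this scale understate those of low genes, and folds quoted as such are ratios of mean TPM. No permutation test of 2 against 2 libraries can go below p = 0.333. Whether replicates were separate cultures is not stated, so p-values measure only the spread between libraries, which may be technical. The correlation of replicates across genes was 0.983 to 0.985. Gene positions are from a GRCm39 annotation that held 98.8% of the genes, and promoter windows from RefSeq on GRCm38.p6. *Erbb3* and *Fgfr1* windows were not in the table, and *Pdgfrb* sequence was not used here. Of 29 negative regulators, *Spry3* had no row.

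The receptors and all lists were chosen with earlier results of these data known. Genes named are the 10 receptors, *Ppif*, from each pathway list and each of the first 3 comparisons up to 3 genes with the largest rise and 3 with the largest fall (adjusted p under 0.05, log2 fold change of at least 1), and the 3 nearest patterns; others are marked as named after their values were seen. The values of 1 gene that this rule takes are not reported here. Marker lists are given by counts, sums and the genes at 0, with the markers that carried a change. Alternatives were a pseudocount of 0.1, a minimum of 5 TPM or none, rescaling by the median of ratios, only the 4 libraries compared, a replicate block, no trend and leaving out each library.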

Additional observations from a re-analysis of the deposited data

How the results depend on the processing

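Of 618 recomputed receptor fold changes, 579 kept their direction and their side of the threshold, 25 lost and 5 gained significance, and 9 turned sign, all of them differences that had not passed. With median-of-ratios rescaling, *Tyro3* in CypD KO against WT became -0.0605 and *Met* in CypD KO against Control -0.0331, and the cause was not tested. Leaving out each library in turn gave -0.0939 to 0.1321 for *Tyro3* in CypD KO against WT (negative without WT replicate 2 or CypD KO replicate 1), -0.1189 to 0.0861 for *Mertk* there (positive without WT replicate 1 or CypD KO replicate 1), -0.1191 to 0.0012 for *Pdgfrb* in CypD KO against CypD OE (positive without CypD KO replicate 1), and -0.2992 to 0.4235 for *Axl* in CypD OE against Control (negative without Control replicate 1 or CypD OE replicate 2). In fits of only the 4 libraries compared, genes called in Control against WT fell to 1981 from 3269 and receptors called in CypD KO against Control to 3 from 5. Leaving out a library gave 2009 to 2900 genes in Control against WT, 2295 to 3558 of 3744 genes in CypD OE against WT, and 3 to 4 receptors in CypD KO against Control. These fits have fewer samples. The group left with 1 library is assumed to vary like the others. The *Tyro3* call in Control against WT was also lost with no filter (adjusted p = 0.0785) and in the 4-library fit (0.0803). *Pdgfrb* in CypD OE against Control passed without the trend (0.0175). The rescaling moved the share of higher genes among all calls from 62.4% to 50.1% in CypD KO against Control and from 60.5% to 51.1% in CypD KO against CypD OE. The filter of 5 TPM left 5 receptors to test. No filter left 9, and receptors called were then 6 in CypD OE against Control (*Fgfr1* added, lower), 6 in CypD OE against WT (*Ngfr* added, lower), 3 in Control against WT (*Fgfr1* added, higher, *Tyro3* lost) and 5 in CypD KO against Control (*Fgfr1* added, lower, *Pdgfrb* lost at adjusted p = 0.0667).

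Library numbers are not stated to pair samples, and deviations of same-numbered libraries correlated at -0.03 to 0.108 across genes. With a replicate block, the *Pdgfrb* call in CypD KO against Control was lost (adjusted p = 0.0554 against 0.0362), and no other receptor call changed. Depth limits *Ngfr* (at most 15.9 fragments), *Fgfr1* (25) and *Mertk* (90.9).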
